A study of Mus musculus with 12 samples.

Results

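Integrins are receptors made of 1 α and 1 β chain that tie a cell to its matrix or to other cells, and the focal adhesion genes described beside them encode the proteins that gather on their cytoplasmic tails and join them to actin. The set comprised 38 mouse genes, 26 integrin subunits and 12 focal adhesion proteins, chosen by name and found through every probe whose accession is that of the gene. The choice was made with earlier results of these data known, so counts set against all genes describe the set and do not test it. Of the 38 genes, 36 had a probe. Itga10 and Itgae had no mapped probe, and neither probe of Itgb6 was well above background on any array, which left 35 tested genes of 25019 tested in all (50 kept probes of 30520).

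RNA came from 2 testis fractions, labelled Sertoli cells and germ cells, of 6 male C57BL/6J mice, with 1 single-colour array per fraction and mouse. The 3 mice labelled TAp73 knockout were mouse 120, aged 4 months, and mice 86 and 72, aged 8 months. The 3 control mice were mouse 99, aged 5 months, and mice 73 and 74, aged 8 months. All control source names say wildtype, but the titles call mice 73 and 74 het and give WT for mouse 99 alone. TAp73 denotes the Trp73 products, relatives of p53, that keep the transactivation domain, and the series title names germ cell adhesion as its subject. Neither the deleted stretch of Trp73 nor any restriction of the deletion to a cell type is given in the sources used here.

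In the testis, Sertoli cells hold developing germ cells through actin-rich junctions called ectoplasmic specialisations, at which the laminin receptor α6β1 is known to lie, and they rest with peritubular myoid cells on a basement membrane of laminin and collagen. Talins and kindlins switch integrins on by binding the β tail. Kinases and adaptors such as FAK, paxillin and p130Cas then pass on the signal, and ILK, PINCH1 and α-parvin form a complex that couples the tail to actin. Leukocytes carry integrins of their own, built on β2 or β7.

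Levels are log2 processed signals relative to the 75th percentile of the same array, so a level of 0 equals that percentile and a log2 difference of 1 is a 2-fold change. Levels of different probes are not set against each other. Wherever 3 values are given for a group, they belong to mice 120, 86 and 72 for knockouts and to mice 99, 73 and 74 for controls. Differences were tested with limma over all genes, errors of differences are the standard error (SE) of that fit, errors of means are the SD of 3 mice, and a gene is called changed at an adjusted p under 0.05 (Benjamini-Hochberg). Each of 3 slides carried 4 arrays, from both fractions of a knockout and of a control animal (120 with 99, 86 with 73, 72 with 74), so slide is balanced between genotypes, and both younger mice share slide 1.

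The share of probes well above background ran from 75.2% to 79.0% on the knockout and from 73.3% to 77.1% on the control germ arrays, and from 64.1% to 67.5% on the knockout and from 64.4% to 68.3% on the control Sertoli arrays. The Trp73 probes do not check the labels. Probe A_52_P193555 lay between -3.29 and -1.52 on the 6 arrays of mice labelled knockout, between -4.15 and -2.50 on those of the controls titled het, and at -9.40 in germ and -9.42 in Sertoli cells of mouse 99, where it was not well above background. A second probe, A_52_P410636, was well above background on all 12 arrays, with levels of -4.28 in germ and -3.56 in Sertoli cells of mouse 99. Another probe, A_55_P1988133, lay between -5.82 and -3.50 in mice labelled knockout, each time well above background. In mouse 99 it lay at -8.73 in germ and -8.52 in Sertoli cells, not well above background in either. In mice 73 and 74 it was well above background in germ cells (-5.10 and -4.39) but not in Sertoli cells (-6.67 and -5.39). The words knockout and control therefore stand for the labels throughout, and so do the names of the fractions. Of 17 tested Sertoli cell markers, 4 were called higher and 8 lower in the Sertoli fraction of knockouts, and 7 higher and 7 lower in that of controls. The median log2 difference of this list was 0.08 in controls and -0.19 in knockouts. Fshr, the receptor for follicle-stimulating hormone, stayed near background on all control Sertoli arrays, and the Sertoli cell genes Rhox5 (-5.28) and Amhr2 (-4.40) were lower on the control Sertoli than on the control germ arrays. These genes were picked after their values were seen and do not stand for the list. All 8 peritubular myoid and all 7 fibroblast markers were higher in the Sertoli fraction, with median log2 differences of 5.21 and 6.36 in controls, and all 15 spermatocyte and 12 elongating spermatid markers were lower. In such fractions, fewer cells of a type and less RNA per cell cannot be told apart.

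Most integrin and focal adhesion genes had higher levels in the Sertoli fraction. The differences reached 7.65 on the log2 scale in controls and 6.23 in knockouts, both for Itga5, while Itgad and Itga2 lay far lower in the Sertoli fraction. In knockouts, 25 of the 35 tested members were called higher in the Sertoli fraction and 2 lower, with a median difference of 2.81 against 0.09 over all genes. In controls 27 were called higher and 2 lower, with a median of 3.27 against 0.21. Over all genes, 37.9% were called higher and 37.1% lower in knockouts, and 39.8% higher and 36.6% lower in controls. The myoid and fibroblast markers moved the same way as these members, and their part in the differences was not tested.

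**Figure D1:**
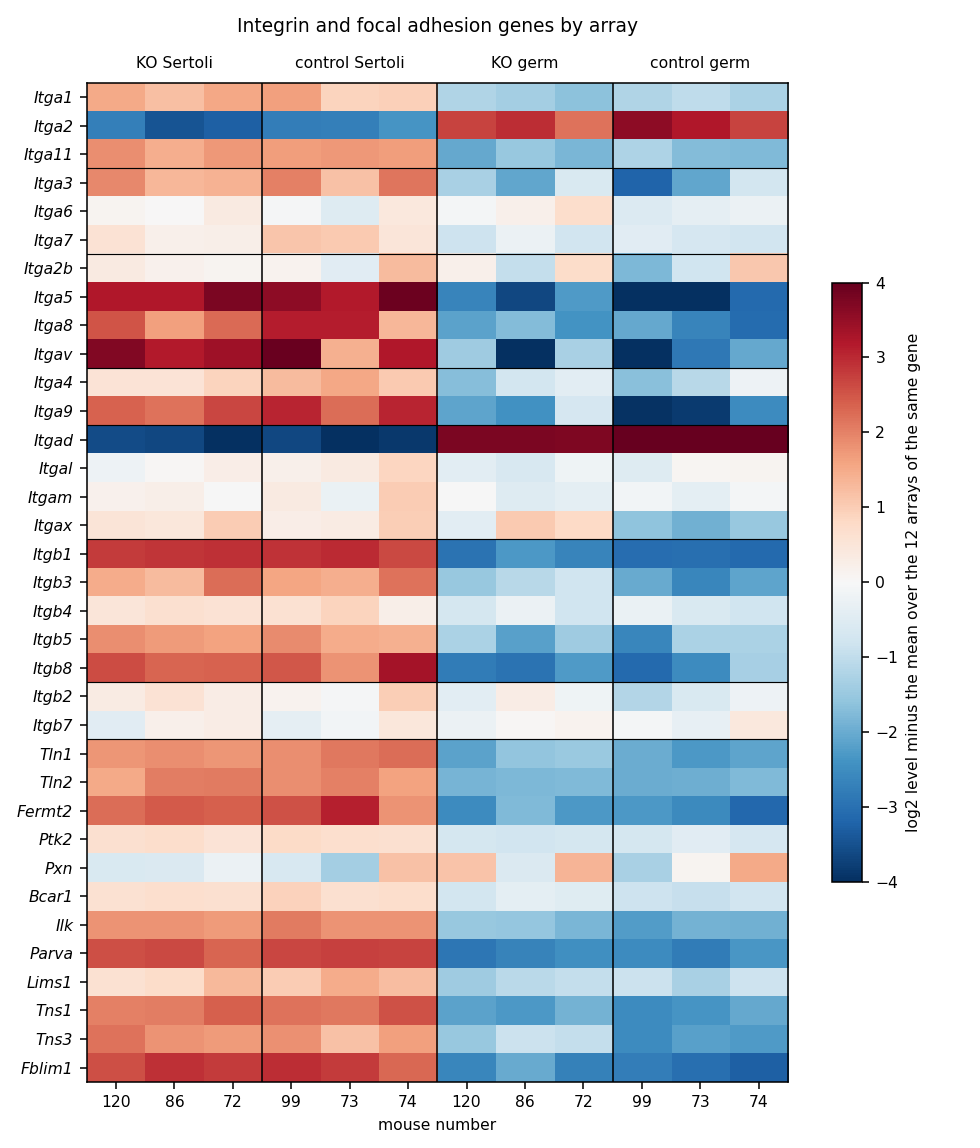
Level of each of the 35 tested genes on each of the 12 arrays, coloured by its log2 difference from the mean of that gene over the arrays (red higher, blue lower, colours saturate at 4), with horizontal lines between the role groups. Most rows are red on the Sertoli arrays and blue on the germ arrays, and the rows of Itga2 and Itgad run the other way.

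Promoters are shown for 3 members with contrasting patterns, Itga2 with higher germ levels, Itgb1 with higher Sertoli levels, and Itgax with the largest knockout difference in the germ fraction. The sequences are those of RefSeq on GRCm38.p6, from 250 bases before to 50 after the start of the gene, 5′ to 3′ on the gene's strand. Capitals mark matches to the GC box GGGCGG and, in Itgb1, the TEAD site GGAATG.
Itga2, minus strand, chr13:114932051-114932350: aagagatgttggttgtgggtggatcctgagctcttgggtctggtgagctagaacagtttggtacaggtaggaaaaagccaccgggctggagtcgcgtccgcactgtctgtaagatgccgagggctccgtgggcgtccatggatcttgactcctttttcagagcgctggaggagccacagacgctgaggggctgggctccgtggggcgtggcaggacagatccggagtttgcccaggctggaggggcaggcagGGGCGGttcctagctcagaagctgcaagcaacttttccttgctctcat
Itgb1, plus strand, chr8:128685404-128685703: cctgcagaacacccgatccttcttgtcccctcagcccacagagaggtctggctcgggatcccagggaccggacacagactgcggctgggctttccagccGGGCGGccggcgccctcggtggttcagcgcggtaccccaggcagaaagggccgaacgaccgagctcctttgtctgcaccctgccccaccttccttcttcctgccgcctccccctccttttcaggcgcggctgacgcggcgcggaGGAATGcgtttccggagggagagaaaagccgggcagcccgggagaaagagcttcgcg
Itgax, plus strand, chr7:128129300-128129599: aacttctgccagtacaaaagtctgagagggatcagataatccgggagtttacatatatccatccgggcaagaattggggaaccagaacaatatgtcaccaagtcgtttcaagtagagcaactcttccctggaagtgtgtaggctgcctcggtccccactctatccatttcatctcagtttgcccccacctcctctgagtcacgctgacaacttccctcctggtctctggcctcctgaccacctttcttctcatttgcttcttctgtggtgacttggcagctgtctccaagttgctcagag
Both strands were searched, and overlapping matches of 1 motif were allowed. A GC box was found at 2 bases after the start in Itga2 and at -151 in Itgb1, where the TEAD site lies at -7. The Itgax window held none of the 6 motifs searched. Of 26 members with an entry, 15 held a GC box, against 35.66% of all 32851 promoters of the table. For each motif a member was counted if any of its entries held it, whereas the percentages are over single entries, so the units differ. The PU.1 site GAGGAAGT was in 5 (Itga11, Itgav, Itgb6, Itgb7 and Lims1) against 3.202%, the TEAD site in 3 against 14.66%, the CArG box in 2 against 1.629%, the TATA box TATAAA in 1 against 13.62%, and the cAMP response element TGACGTCA in 0 against 1.79%. A match is a description of these letters and says nothing on binding.

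Among the α chains that bind the RGD motif of fibronectin and related ligands, 3 of 4 were higher in the Sertoli fraction in both genotypes. Itga5, which with β1 forms the fibronectin receptor, lay at 0.82, 0.83 and 1.38 in knockout and at 1.20, 0.80 and 1.54 in control Sertoli cells, against -5.02, -6.00 and -4.62 in knockout and -6.95, -6.95 and -5.49 in control germ cells. Every Sertoli array lay above every germ array, by 6.23 ± 0.45 in knockouts (adjusted p 1.96e-07) and by 7.65 ± 0.45 in controls (adjusted p 3.23e-08). The probe was well above background on all 12 arrays. On the germ arrays of mice 99 and 73, however, it was close to the lowest signal well above background (-7.16 and -7.28), so the size is uncertain. Itga8, whose product binds nephronectin, had levels of 2.04, 1.16 and 1.79 in knockout and of 2.65, 2.66 and 0.84 in control Sertoli cells, against -2.63, -2.23 and -2.89 in knockout and -2.53, -3.12 and -3.56 in control germ cells. The fractions did not overlap, with differences of 4.24 ± 0.48 in knockouts and 5.12 ± 0.48 in controls. For Itgav, the partner of several β chains, the probe A_51_P382484 lay at 0.62, 0.07 and 0.29 in knockout and at 0.86, -1.66 and 0.12 in control Sertoli cells, against -4.53, -7.99 and -4.39 in knockout and -9.40, -5.97 and -5.15 in control germ cells. Here too the fractions were apart (5.96 ± 1.18 in knockouts and 6.61 ± 1.18 in controls), although the probe was well above background on only 2 of 3 germ arrays of each genotype. Itga2b, the platelet chain, was not called in either genotype (0.20 ± 0.69 in knockouts and 0.82 ± 0.69 in controls).

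Of the tenascin and VCAM1 receptors α9 and α4, both were higher in the Sertoli fraction. Itga9 had levels of 0.85, 0.66 and 1.17 in knockout and of 1.54, 0.73 and 1.54 in control Sertoli cells, against -3.60, -3.92 and -2.18 in knockout and -5.46, -5.32 and -4.01 in control germ cells. No germ array reached a Sertoli array, and the difference was 4.13 ± 0.49 in knockouts and 6.20 ± 0.49 in controls. Itga4 differed by 1.60 ± 0.40 in knockouts (adjusted p 0.00333) and by 2.29 ± 0.40 in controls, and its probe was well above background on 2 of 3 knockout and 1 of 3 control germ arrays. With normexp background correction the knockout difference of Itga4 was 0.88 and not called (adjusted p 0.25).

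The collagen receptor chains went both ways. Itga1 was higher in the Sertoli fraction by 2.81 ± 0.23 in knockouts and 2.32 ± 0.23 in controls, and Itga11, the chain of a fibrillar collagen receptor, by 3.49 ± 0.21 and 3.27 ± 0.21. Itga2 instead lay at -7.36, -8.08 and -7.89 in knockout and at -7.41, -7.37 and -6.97 in control Sertoli cells, not well above background on any of them, against -1.93, -1.68 and -2.45 in knockout and -1.06, -1.43 and -1.94 in control germ cells. All 6 germ arrays detected it and all 6 Sertoli arrays did not, so the fold is a bound. The bound divides the mean of the bright fraction by that of a floor, set on each dim array to the lowest signal well above background or to the signal of the probe itself where that was higher. In the main processing, Itga2 was at least 28.5-fold lower in the Sertoli fraction of knockouts and at least 33.2-fold lower in that of controls (adjusted p 1.21e-08 and 1.05e-08). Its probe was kept for its germ arrays alone, so these p-values are not separate support. Over the alternatives, the log2 difference ranged from -5.92 to -3.31 in knockouts and from -6.35 to -2.14 in controls, so the bounds do not hold under each. The adjusted p was largest with normexp background correction (0.00289 and 0.0288).

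Among the laminin receptor chains, Itga7 and Itga6 differed less than Itga3. Itga3 was higher in the Sertoli fraction by 2.87 ± 0.57 in knockouts and 3.78 ± 0.57 in controls. Itga7 differed by 0.94 ± 0.23 in knockouts (adjusted p 0.00341) and by 1.51 ± 0.23 in controls, and the knockout call was lost without mouse 120 and with only the mice of 8 months (adjusted p up to 0.0701). Itga6, the chain of the ectoplasmic specialisation receptor, had levels of 0.53, 0.43 and 0.78 in knockout and of 0.38, -0.11 and 0.82 in control Sertoli cells, against 0.33, 0.61 and 1.11 in knockout and -0.14, 0.04 and 0.16 in control germ cells. Its fractions overlapped, and the differences of -0.10 ± 0.27 in knockouts and 0.34 ± 0.27 in controls were not called (adjusted p 0.736 and 0.261).

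All 5 tested β chains outside the leukocyte group were higher in the Sertoli fraction in both genotypes. Itgb1, the shared partner of most α chains named here, lay at 3.72, 3.79 and 3.86 in knockout and at 3.81, 3.91 and 3.57 in control Sertoli cells, against -2.02, -1.37 and -1.70 in knockout and -2.12, -2.07 and -2.17 in control germ cells. The gap between the fractions was wide beside the spread within groups, at 5.49 ± 0.19 in knockouts and 5.88 ± 0.19 in controls (adjusted p 7.54e-10 and 4.52e-10). Itgb3, the β chain of a vitronectin receptor, differed by 2.81 ± 0.31 in knockouts and 3.98 ± 0.31 in controls, and Itgb5, another partner of αv, by 3.35 ± 0.37 and 3.32 ± 0.37. A second Itgb3 probe (A_66_P126293) gave 0.53 in knockouts (adjusted p 0.109 over all probes) and 1.24 in controls (0.00177). Itgb4, the partner of α6 in hemidesmosomes, differed by 1.15 ± 0.23 in knockouts and by 1.14 ± 0.23 in controls, and the control difference was not called without the controls titled het (adjusted p 0.0523). Itgb8, which with αv binds latent TGF-β, was undetected on all germ arrays, and its probe was kept for its Sertoli arrays alone. In the main processing the Sertoli fraction exceeded the germ fraction at least 10.3-fold in knockouts and at least 9.76-fold in controls. Over the alternatives, the log2 difference in controls ranged from 3.14 to 5.60.

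The leukocyte chains did not follow this pattern. Itgad, the αD chain known from macrophages, lay at -7.36, -7.43 and -8.55 in knockout and at -7.43, -7.86 and -7.65 in control Sertoli cells, against -0.03, -0.02 and -0.06 in knockout and 0.33, 0.25 and 0.39 in control germ cells. It was not well above background on any Sertoli array. In the main processing it was at least 112.8-fold lower in the Sertoli fraction of knockouts and at least 115.7-fold lower in that of controls (adjusted p 1.09e-09 and 8.35e-10). The probe was kept for its germ arrays alone, so these p-values are not separate support. Over the alternatives, the log2 difference ranged from -7.95 to -5.07 in knockouts and from -8.08 to -3.88 in controls, so these bounds do not hold under each. Only 1 probe, A_55_P1976943, measured it. Of 10 tested macrophage markers, 7 were called lower and 1 higher in the Sertoli fraction of knockouts, and 5 lower and 3 higher in that of controls, with median log2 differences of -2.0 and -1.04. Their part in the Itgad difference was not tested.

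Itgal, the αL chain of LFA-1, gave calls that depended on the probe. Probe A_51_P466378 had levels of -4.28, -4.04 and -3.82 in knockout and of -3.90, -3.73 and -3.24 in control Sertoli cells, against -4.51, -4.74 and -4.28 in knockout and -4.60, -4.02 and -3.99 in control germ cells. Its fractions were not called different (0.46 ± 0.25 in knockouts and 0.58 ± 0.25 in controls, adjusted p 0.112 and 0.051). In controls this call changed with mouse as a block (0.58, adjusted p 0.0347 as a random and 0.0307 as a fixed block) and with slide as a block (adjusted p 0.0165), and in knockouts with slide as a block (0.46, adjusted p 0.0445). In controls it also changed with normexp background correction (1.29, adjusted p 0.0342) and with only probes well above background on all 12 arrays (0.58, adjusted p 0.0437). Probe A_55_P2184601 lay at -7.70, -8.09 and -7.97 in knockout and at -7.92, -9.01 and -7.70 in control Sertoli cells, against -4.76, -5.02 and -5.12 in knockout and -4.74, -4.39 and -4.83 in control germ cells. By that probe Itgal was lower in the Sertoli fraction, where no array was well above background. With the mean of the kept probes, Itgal was called lower there, at -1.25 in knockouts and -1.49 in controls (adjusted p 0.000443 and 0.000111). No single direction can therefore be given for the gene. Itgam, the αM chain of Mac-1, was not called by its brightest probe (0.44 ± 0.29 in knockouts and 0.56 ± 0.29 in controls) nor by A_55_P1977926, but A_55_P1977929 was called higher in the Sertoli fraction by 0.97 in knockouts and 1.14 in controls (adjusted p 0.0339 and 0.0163 over all probes). Itgb7 differed by 0.03 ± 0.29 in knockouts and by less than 0.29, its SE, in controls. Itgb2, the β chain shared by αL, αM, αX and αD, differed by 0.51 ± 0.32 in knockouts (adjusted p 0.174) and by 1.02 ± 0.32 in controls (0.0134), and the control call was lost without mouse 99 and with only the mice of 8 months (adjusted p up to 0.0966).

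Of the 12 focal adhesion proteins, 11 were higher in the Sertoli fraction in both genotypes. Parva, the actin-binding α-parvin, had levels of 3.1, 3.17 and 2.85 in knockout and of 3.21, 3.25 and 3.23 in control Sertoli cells, against -2.38, -2.17 and -1.94 in knockout and -2.0, -2.27 and -1.82 in control germ cells. The difference was 5.20 ± 0.18 in knockouts and 5.26 ± 0.18 in controls, and its other 2 probes had control differences of 7.23 and 7.92. Fblim1, or migfilin, which binds filamin and kindlin, lay at 3.00, 3.35 and 3.21 in knockout and at 3.37, 3.23 and 2.73 in control Sertoli cells, against -2.18, -1.58 and -2.27 in knockout and -2.35, -2.58 and -2.85 in control germ cells. The fractions were 5.20 ± 0.25 apart in knockouts and 5.70 ± 0.25 in controls. Fermt2, which encodes kindlin-2, had levels of 2.75, 2.98 and 2.92 in knockout and of 3.07, 3.62 and 2.33 in control Sertoli cells, against -2.01, -1.24 and -1.77 in knockout and -1.77, -2.01 and -2.62 in control germ cells. No array of one fraction reached the other, with differences of 4.56 ± 0.34 in knockouts and 5.14 ± 0.34 in controls.

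The other components of the ILK complex were also higher in the Sertoli fraction, Ilk by 3.40 ± 0.17 in knockouts and 3.92 ± 0.17 in controls, and Lims1, which encodes PINCH1, by 2.03 ± 0.24 and 2.23 ± 0.24. The talins differed by 3.53 ± 0.20 in knockouts and 4.20 ± 0.20 in controls for Tln1, and by 3.70 ± 0.19 and 3.72 ± 0.19 for Tln2. A second Tln1 probe (A_55_P1956978) was called in controls only, at 1.59 in knockouts (adjusted p 0.0649 over all probes) and 2.91 in controls. The tensins, which bind β tails and actin, differed by 4.26 ± 0.20 in knockouts and 4.58 ± 0.20 in controls for Tns1, and by 3.01 ± 0.24 and 3.87 ± 0.24 for Tns3. The signalling members differed less. Ptk2, which encodes FAK, was 1.34 ± 0.15 higher in knockouts and 1.32 ± 0.15 higher in controls, and Bcar1, which encodes p130Cas, 1.18 ± 0.16 and 1.60 ± 0.16. Paxillin was the exception in this group, since Pxn was not called (-1.12 ± 0.79 in knockouts and -0.39 ± 0.79 in controls), and its control germ arrays alone spread from -5.91 to -3.12.

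**Figure D2:**
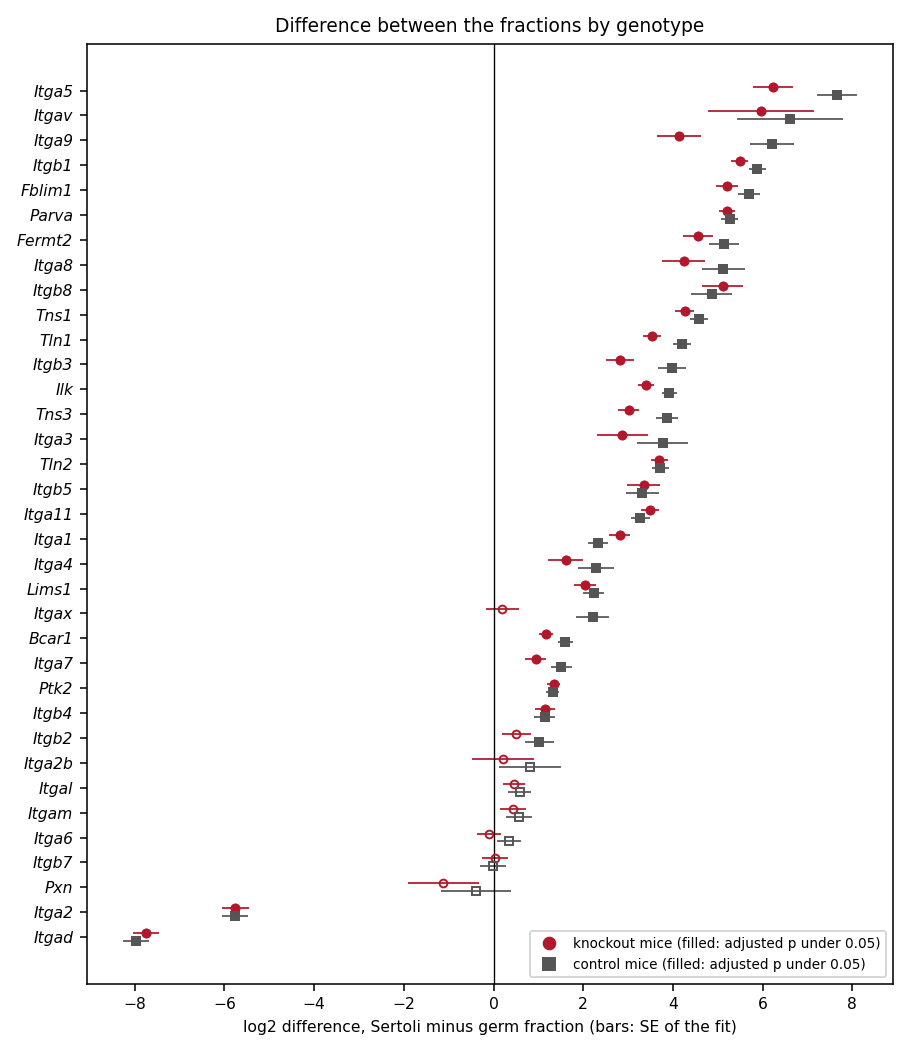
Sertoli minus germ log2 difference of each tested gene in knockout mice (red circles) and control mice (grey squares), with the SE of the fit as bars and filled symbols for an adjusted p under 0.05. In both genotypes 2 genes, Itgad and Itga2, are called lower, and Itgax is filled in controls only.

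Of 13 members with several kept probes, 12 had the same sign in the control fractions on every kept probe, and 7 had the same sign on every kept probe for knockout minus control in germ cells. Within slides 1, 2 and 3 the median difference of the members was 3.02, 2.54 and 2.68 in knockouts and 2.95, 2.77 and 2.70 in controls. When arrays were scaled to their medians, the median of all genes shifted to 0.94 in knockouts and 0.88 in controls and that of the members to 3.66 and 3.95, and Itga6 and Itgam were then called too. After this scaling, after quantile normalisation and in the authors' deposited table, Itgb7 and Itgal were called in both genotypes (Itgal by 1.31 in knockouts and 1.25 in controls after median scaling), Itga2b in controls, and Itgax and Itgb2 in knockouts as well as in controls, so the calls of these genes depend on the scaling.

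Germ cells of knockout mice had higher levels than those of controls for several members, but no member passed the test. Itgax, the αX chain known as CD11c on dendritic cells and macrophages, had the largest difference (2.15 ± 0.37), followed by Itga9, Itga5, Itgav, Tns3 and Itgb3 with 1.70 to 1.11. By limma 0 of the 35 members were called, against 0.220% of all genes. An unadjusted p under 0.05 was found for 8 members, against 7.34% of all genes. The median over the members was 0.31, against -0.04 over all genes, and 23 members lay above 0, against 45.5% of all genes. All 3 knockout arrays exceeded all 3 control arrays for 9 members, against 6.58% of all genes, and lay below them for 1, against 9.16%. Within slides 1, 2 and 3 the median over the members was 0.10, 0.34 and -0.01. Markers of several cell types moved in the same comparison, in both directions. The log2 of the summed signal of the peritubular myoid markers ran from 5.20 to 5.44 on the knockout germ arrays, against 4.90 to 5.19 on the control germ arrays, and that of the Sertoli cell markers from 7.25 to 7.55, against 6.87 to 7.22. Of the 7 fibroblast markers, 5 lay above 0 and 2 below, and 1, Pdgfra, was called (1.25, adjusted p 0.036). Without overlap, 2 were higher and 1 was lower in knockouts. The 7 tested Leydig cell markers had the largest median of the marker lists, 1.34 with 6 above 0, 0 called and 4 without overlap, and the log2 of their summed signal ran from 4.46 to 4.90 on the knockout germ arrays, against 4.14 to 4.55 on the control germ arrays. That of the 3 tested platelet markers ran from -1.51 to -0.83, against -2.33 to -1.61, and in each genotype 3 of the 6 listed were detected above background on none of the germ arrays. Germ cell markers mostly lay below 0, none called: 9 of 10 for round spermatids, 12 of 15 for spermatocytes, 10 of 12 for elongating spermatids and 8 of 11 for spermatogonia. The log2 of the summed round spermatid signal ran from 6.24 to 6.53 on the knockout germ arrays, against 6.54 to 6.77 on the control germ arrays. The sums of the other germ cell lists overlapped between genotypes. The part of these marker lists in the members' differences was not tested.

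Itgax lay at -4.62, -3.13 and -3.40 in knockout germ cells, against -5.80, -6.11 and -5.69 in control germ cells. Every knockout array was above every control array, and the adjusted p was 0.0514. The difference was 1.18, 2.97 and 2.30 within slides 1, 2 and 3. In Sertoli cells the levels were -3.67, -3.72 and -3.19 in knockouts, against -3.91, -3.86 and -3.20 in controls. The knockout germ arrays of mice 86 and 72 lay within or above that range, and that of mouse 120 below it. The knockout effect in Sertoli minus that in germ cells, the interaction, was -2.02 ± 0.52 and did not pass (adjusted p 0.57). Sertoli minus germ differences were accordingly 0.19 ± 0.37 in knockouts (adjusted p 0.65) and 2.21 ± 0.37 in controls (0.00019).

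The Itgax call sat at the threshold. It passed in 4 of 19 alternative analyses, of which leaving out mouse 120 gave the smallest adjusted p (2.60, adjusted p 0.0097), and normexp background correction gave the largest (1.47, adjusted p 1). Macrophage markers were higher in the same arrays. All 10 tested of 12 listed markers had a difference above 0 (median 1.15, none called), and the log2 of their summed signal ran from 1.28 to 2.11 in knockout germ cells, against 0.97 to 1.01 in control germ cells. None of the 10 was at background in knockout germ cells, and Lyz2 was well above background on 1 of 3 control germ arrays. The array of mouse 120 had both the lowest Itgax level and the lowest marker sum of the knockout germ arrays. The 5 tested of 11 listed markers of other leukocytes had a median of 0.07, with 3 above 0, 2 below and none called. The log2 of their summed signal ran from 0.66 to 1.77 in knockout germ cells, against 0.92 to 1.56 in control germ cells. The part of macrophages and other leukocytes in the Itgax difference was not tested. The other chains of β2 integrins had differences of -0.36 ± 0.28 for Itgad, -0.12 ± 0.29 for Itgam, -0.31 ± 0.25 for Itgal and 0.55 ± 0.32 for Itgb2 itself.

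Receptor chains for osteopontin, tenascin and fibronectin followed among the integrins. Itgb3 lay at -2.61, -2.18 and -1.88 in knockout germ cells, against -3.10, -3.70 and -3.20 in control germ cells, without overlap (1.11 ± 0.31, adjusted p 0.262). Its second probe, A_66_P126293, lay at -5.49, -5.81 and -5.35 in knockouts, against -5.72, -5.63 and -6.27 in controls, and there the groups overlapped (0.32, adjusted p 1 over all probes). Itga9 lay at -3.60, -3.92 and -2.18 in knockouts, against -5.46, -5.32 and -4.01 in controls, again without overlap (1.70 ± 0.49, adjusted p 0.282). Itga5 lay at -5.02, -6.00 and -4.62 in knockouts, against -6.95, -6.95 and -5.49 in controls (1.25 ± 0.45, adjusted p 0.447). Here the groups overlapped, since control mouse 74 was above knockout mouse 86, and all 3 genes were higher in knockouts within each slide. The Itgav difference of 1.20 ± 1.18 ranged from -2.02 on slide 2 to 4.87 on slide 1, and its second probe (A_55_P2039771) had levels of -5.30, -5.29 and -4.90 in knockout germ cells, against -6.26, -6.13 and -6.41 in control germ cells. That probe separated the genotypes by 1.10 but was not called either (adjusted p 0.0939 over all probes).

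Itga6 lay at 0.33, 0.61 and 1.11 in knockout germ cells, against -0.14, 0.04 and 0.16 in control germ cells, without overlap (0.66 ± 0.27, adjusted p 0.58). Itgb1, its partner, differed by 0.42 ± 0.19 (adjusted p 0.67), also without overlap and above 0 within each slide (0.10, 0.70 and 0.47). The collagen receptor chains had differences below 0 by their brightest probes, at -0.22 ± 0.23 for Itga1, -0.54 ± 0.29 for Itga2 and -0.23 ± 0.21 for Itga11, but the second probe of Itga1 (A_52_P518922) gave 0.17. Itgad was the single member with all knockout germ arrays below all control germ arrays (-0.36, -0.27 and -0.44 within slides). Its shared SE also draws on the Sertoli arrays, where the probe was not well above background, and it was not called in any of 18 alternatives (adjusted p 0.578 to 1).

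Among the focal adhesion proteins, Tns3 had the smallest p in germ cells. Tns3 lay at -0.55, 0.11 and 0.01 in knockouts, against -1.53, -1.19 and -1.30 in controls. The groups did not overlap and the difference of 1.19 ± 0.24 was alike within slides (0.98, 1.30 and 1.31), but the adjusted p was 0.100, and a second probe gave 0.79 (adjusted p 0.984 over all probes). Fblim1 (0.58 ± 0.25), Ilk (0.38 ± 0.17) and Bcar1 (0.31 ± 0.16) were also without overlap, with adjusted p from 0.623 to 0.778. By their brightest probes, 9 of the 12 proteins lay above 0, against 45.5% of all genes, with a median of 0.35. Second probes had the other sign for Fermt2 (0.46, second probe -0.05), Tns1 (0.19 and -0.12) and Lims1 (-0.16 and 0.05), so these genes have no single direction. Ptk2 differed by -0.09 ± 0.15 and Parva, by its brightest probe, by -0.13 ± 0.18. The other 2 Parva probes lay the other way in germ cells, at 1.23 (A_52_P225570, adjusted p 0.545 over all probes) and 0.79 (A_55_P2115477, which no control germ array detected above background), so no direction can be given for Parva.

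**Figure D3:**
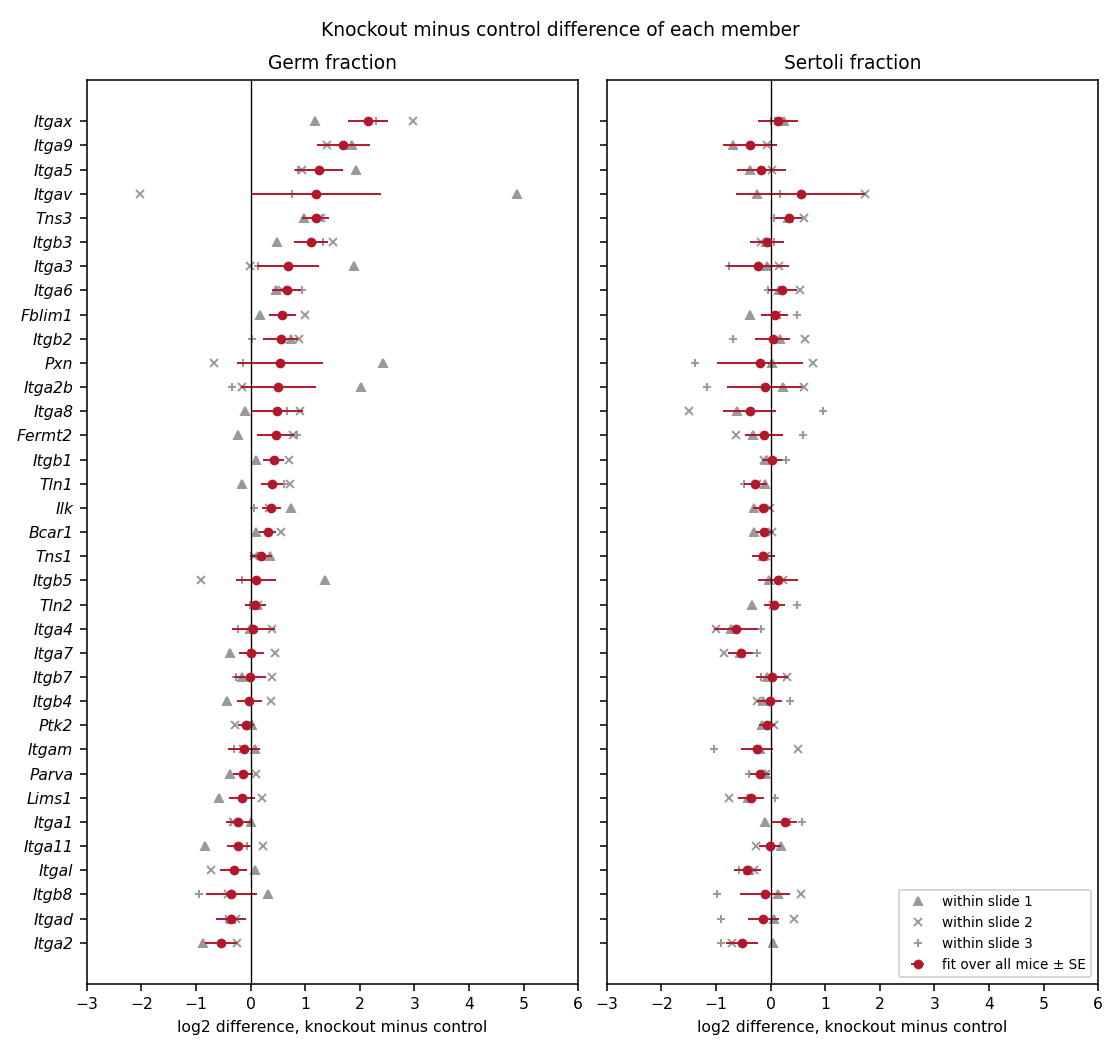
Knockout minus control log2 difference of each tested gene in the germ fraction (left) and the Sertoli fraction (right), as the fit over all mice with its SE (red circles) and as the difference within each slide (grey symbols). Itgax, Itga9, Itga5, Tns3 and Itgb3 lie right of 0 on all 3 slides in germ cells, and Itgav ranges from -2.02 to 4.87.

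In Sertoli cells, knockout and control mice differed in no member past the test. By limma 0 of 35 members were called, against 0% of all genes, and 1 member had an unadjusted p under 0.05, against 3.03% of all genes. Differences ran from -0.63 to 0.55, with a median of -0.12 against -0.10 over all genes. All 3 knockout arrays were above all 3 control arrays for 0 members (1.87% of all genes) and below them for 2, Itga4 and Parva (4.86%). The smallest adjusted p of a member rounded to 1. All 8 peritubular myoid markers had a difference below 0 in this comparison, none called (median -0.42). All 12 elongating spermatid markers were also below 0, none called, with a median of -1.19, 7 unadjusted p under 0.05 and 8 without overlap. The log2 of their summed signal ran from 0.44 to 0.57 on the knockout and from 0.80 to 2.23 on the control Sertoli arrays. The part of both lists in the members' values was not tested.

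Itga7 had the smallest unadjusted p, with levels of 1.53, 1.15 and 1.20 in knockout Sertoli cells, against 2.08, 2.0 and 1.45 in control Sertoli cells. The groups overlapped, and the difference was -0.55 ± 0.23. Itga4 lay at -5.45, -5.44 and -5.10 in knockouts, against -4.72, -4.44 and -4.93 in controls, without overlap (-0.63 ± 0.40). Itgal lay at -4.28, -4.04 and -3.82 in knockouts, against -3.90, -3.73 and -3.24 in controls (-0.43 ± 0.25). Here knockout mouse 72 overlapped the controls. Lims1 lay at 1.26, 1.39 and 1.96 in knockouts, against 1.67, 2.14 and 1.88 in controls (-0.36 ± 0.24), and Tln1 at 4.99, 5.10 and 4.99, against 5.10, 5.35 and 5.47 (-0.28 ± 0.20). Lims1 overlapped, and for Tln1 the highest knockout array and the lowest control array were at 5.10. Itga2 was not well above background in either group and has no fold.

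**Figure D4:**
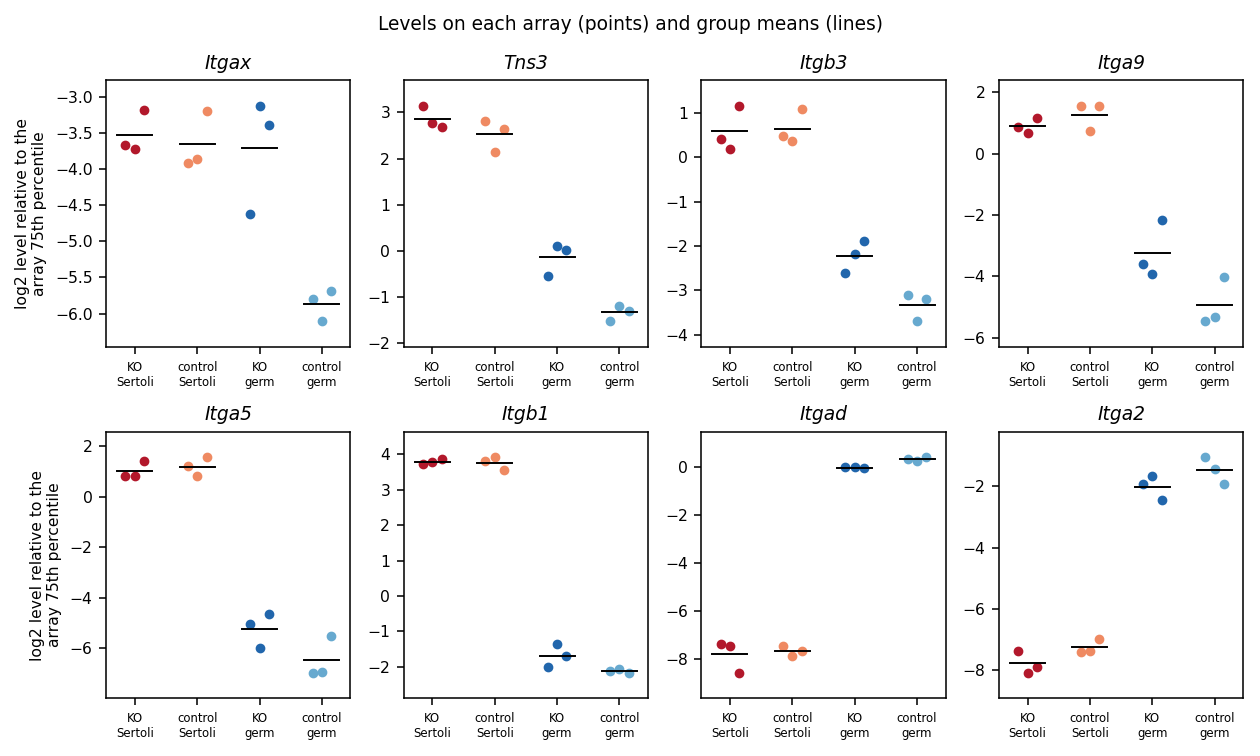
Level of 8 genes on each array (points) with group means (lines), in knockout and control Sertoli cells and then knockout and control germ cells; each panel has its own vertical axis in log2 units relative to the array's 75th percentile. In the germ fraction the knockout points of Itgax, Tns3, Itgb3, Itga9 and Itgb1 lie above all control points, those of Itgad below them, and those of Itga5 and Itga2 overlap the control points.

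The interaction asked whether the knockout effect differed between the fractions. By limma 0 members were called, against 0.00799% of all genes, and 6 had an unadjusted p under 0.05, against 4.58% of all genes. Those were Itgax, Itga9 (-2.08 ± 0.70), Itgb3 (-1.17 ± 0.44), Tns3 (-0.86 ± 0.34), Tln1 (-0.67 ± 0.29) and Itga5 (-1.42 ± 0.63), all negative, which means a lower knockout effect in Sertoli than in germ cells. The smallest adjusted p was 0.57, and the median over the members was -0.45 against -0.09 over all genes.

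Further proteins of the adhesion site were listed apart from the members, also with earlier results of these data known. Of 42 tested genes of 46 listed, 31 were called higher and 5 lower in the Sertoli fraction, in knockouts and in controls alike by count, against 37.9% and 37.1% of all genes in knockouts and 39.8% and 36.6% in controls. The 5 lower ones in each genotype were Lpxn, Parvg, Vasp, Git1 and Itgb1bp1, named after their values were seen, among which leupaxin (Lpxn) differed by -6.57 in knockouts and -6.91 in controls and γ-parvin (Parvg) by -7.08 and -6.66. Between the genotypes 0 were called in germ cells, against 0.220% of all genes, and 8 had an unadjusted p under 0.05, against 7.34%, the smallest those of Trip6 (1.31 ± 0.27, adjusted p 0.100), Dab2 (1.35 ± 0.38) and the zyxin gene Zyx (0.75 ± 0.21). In Sertoli cells 0 were called and 3 had an unadjusted p under 0.05, against 3.03% of all genes, among them Cass4 and Lims2, with differences of -1.0 and -0.57.

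Ligands of these receptors included the 2 genes of the adhesion lists that passed between genotypes. Of 36 tested ligand genes of 37 listed, 2 were called in germ cells, both higher in knockouts, against 0.220% of all genes. An unadjusted p under 0.05 was found for 19, against 7.34% of all genes, the median was 0.62 against -0.04, and all 3 knockout arrays exceeded all control arrays for 13, against 6.58%. The ligand list was chosen with earlier results of these data known, so these counts describe the list and do not test it. Spp1, the gene of osteopontin, lay at -2.69, -1.72 and -2.56 in knockout germ cells, against -6.88, -7.89 and -8.55 in control germ cells. Only mouse 99 among these controls was well above background, so the fitted difference of 5.45 ± 0.47 (adjusted p 0.00195) rests in part on signal near background and its size is uncertain. Ccn1, a matrix protein bound by αvβ3 and α6β1, averaged -0.53 in knockouts, against -2.03 in controls (1.51 ± 0.15, adjusted p 0.00636). Vcam1, a ligand of α4 and α9 integrins, differed by 1.26 ± 0.24 and did not pass (adjusted p 0.0757). The log2 of the summed macrophage marker signal was also higher on the knockout germ arrays, at 1.28, 2.11 and 1.79. Ccn1 did not follow its order over these arrays, at -0.55, -0.71 and -0.32. That of the fibroblast markers ran from 0.76 to 1.47 on the knockout germ arrays, against 0.20 to 0.75 on the control germ arrays. The part of both lists was not tested. In Sertoli cells 0 ligand genes were called. Of 3 with an unadjusted p under 0.05, against 3.03% of all genes, Npnt, the gene of nephronectin, had the smallest (-1.16 ± 0.24, adjusted p 0.483), ahead of Tgfb3 (-0.67 ± 0.27) and Vtn (0.67 ± 0.27). Between the fractions, 30 ligand genes were called higher and 3 lower in the Sertoli cells of knockouts, and 32 higher and 3 lower in those of controls. The shares over all genes were 37.9% higher and 37.1% lower in knockouts, and 39.8% and 36.6% in controls.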

How the data were processed

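RNA was labelled with Cy3 per the labels' protocols. The deposited intensity is the processed signal, background-subtracted and detrended within each array by Agilent Feature Extraction 10.7.3.1 per the file headers, whose grid names build mm9. The authors also deposited a log2 table (column medians about 8.29), whose probe order is that of the processed signal and whose scaling is not stated; the submitters' processing notes name limma.

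Outlier spots and 1377 of 44397 spots that are controls were left out, spots of a probe averaged, log2 taken and the array's 75th percentile subtracted. Of 39429 probes, 26055 were named by accession through RefSeq (GRCm38.p6). A probe was kept if some group had it well above background on its 3 arrays, and a gene was its probe of highest mean, regardless of group. The 4 group means over 12 arrays were fitted with limma 3.58.1 (R 4.3.3), and p-values adjusted over 25019 genes. The code was tested on simulated data. The number of arrays limits precision. The files hold no mean spot signal, so normexp (offset 50) used the median spot intensity columns, which are uncorrected per the file headers. The other alternatives changed the scaling, filter, probe choice, block and mice. Mouse pairs the fractions of an animal, whose deviations correlated from -0.16 to 0.46 over genes.

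Members and lists were chosen with earlier results of these data known. Levels on every array are given for the 6 members of smallest p in each genotype comparison, the largest fraction differences (up to 8 per direction in controls), and members whose probes disagree; of the other lists, called genes or the 3 of smallest p are named.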

Additional observations from a re-analysis of the deposited data

How the results depend on the processing

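The count of members called between genotypes in germ cells was 0, and it was 1, Itgax, when only probes well above background on all 12 arrays were kept, with the mean of the kept probes of a gene, and with slide as a fixed block, while leaving out each mouse in turn gave 0 to 1 (1 without mouse 120). The cause was not tested. Over all genes the same comparison had 55 calls, and 1 to 130 under the alternatives (130 without mouse 120, 3 without mouse 86, 72 or 73, 4 without mouse 99 and 1 with only the mice of 8 months or without the controls titled het). In Sertoli cells and for the interaction, 0 members were called in any of 19 alternatives, and over all genes 0 to 5 and 0 to 4. The Lims1 difference in Sertoli cells, which was not called, turned to 0.23 without the controls titled het, an alternative in which its other probe had the highest mean over the remaining arrays and stood for the gene. Between the fractions, 21 to 33 members were called in knockouts (27 in the main analysis) and 24 to 34 in controls (29). Over all genes, 12973 to 22791 were called in knockouts (18776 of 25019 in the main analysis) and 13344 to 23171 in controls (19112). With the replicate block, which pairs both fractions of a mouse, 27 members were called in knockouts and 30 in controls, where Itgal was added. No call of a member between genotypes or in the interaction changed with that block. The members' median in germ cells ranged from 0.08 to 0.35. Signal near background limits the germ values of Itgav, Itga4, Itga3 and Itga2b, which were not detected on all germ arrays. It also limits those of Itga5, which was detected on all of them but lay near background in control mice 99 and 73.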
